A study of Mus musculus with 2 samples.

Results

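Dppa2, Dppa3, Dppa4, Dppa5a, Khdc3, Tcl1, Fbxo15, Spic and L1td1 are 9 genes of mouse embryonic stem (ES) cells, several of them also active in the oocyte. They were taken by name from the deposited expression table, and all 9 stood among its 14261 rows. RNA-seq was done on 2 suspension cultures of cells labelled TRE-ESC, 1 with doxycycline (dox) and 1 without, both labelled 36 h. Both were kept in N2B27 medium with 2i and LIF in dishes of low adsorption, so the inhibitors and the cytokine that hold the naive state were present in both. The series concerns c-Jun, and Jun stood at 3821 with dox and 55 without. Beyond the name TRE, the labels used here do not describe the dox-controlled construct or name the clone.

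There was 1 library per group, so the differences below have no replicate check, no test and no error from replicates. The deposited values are whole numbers on a normalized count scale with the same quartiles (14, 62 and 184) in both libraries. They keep no sequencing depth, so no counting interval or floor from depth is given. A log2 ratio is log2 of the dox value plus 10 over the no-dox value plus 10, and a fold is the same ratio on the linear scale. A gene was counted as lower or higher at 2-fold or more, where its larger value reached a floor of 50, which 8547 genes did.

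The genes belong together by where they are used. Dppa genes, named for developmental pluripotency association, and their companions here are switched on in the early embryo, ES cells or germ cells and are silent in most adult tissues. Several products are carried by the egg into the embryo as maternal factors, and in ES cells most of these genes are active when the pluripotency network is. The DPPA and KH-domain products act at DNA, chromatin or RNA, whereas TCL1 acts in kinase signalling and FBXO15 in protein turnover.

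All 9 genes had smaller values with dox than without, with log2 ratios from −3.44 to −0.19. Of the 9, 6 were at least 2-fold lower with dox, against 5.49% of all genes at or above the floor. None of the 9 was 2-fold higher, where 9.23% of all genes were. The median log2 ratio of the 9 was −1.31, beside −0.08 over all 8547 genes. Khdc3, Tcl1 and Spic were more than 4-fold lower, a difference that 0.644% of all genes had. Dppa3, Fbxo15 and Dppa4 were 2-fold to 4-fold lower, and L1td1, Dppa2 and Dppa5a were within 2-fold. RNA came from whole cultures, so fewer cells that express a gene and less RNA per cell cannot be told apart.

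**Figure D1:**
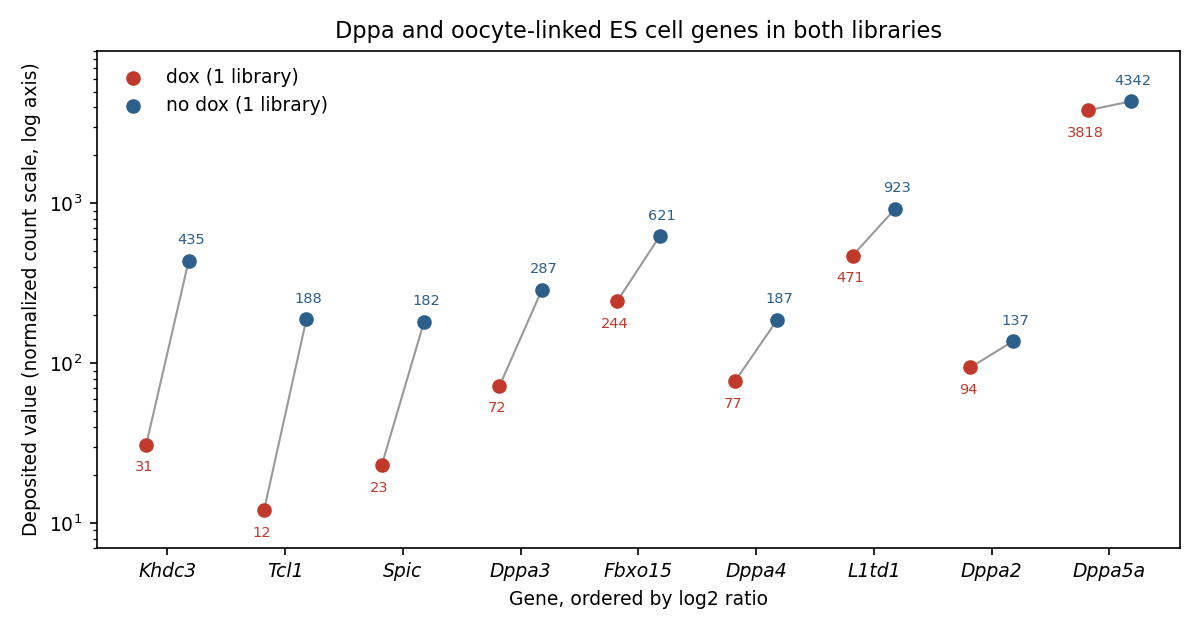
Deposited value (normalized count scale, log axis) of each of the 9 genes in the library with dox (red, left) and without dox (blue, right), 1 library each, with genes ordered by log2 ratio. Every red point lies under its blue point. On this axis, which holds no pseudocount, the gap is widest for Tcl1, at 12 and 188, then Khdc3, at 31 and 435, and narrowest for Dppa5a, at 3818 and 4342.

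Promoter sequences from RefSeq on GRCm38.p6, from 250 bases before to 50 bases after the annotated start, were matched for 4 of the 9 genes. They are shown because these 4 include the 3 genes that differed most between the libraries. Each is written 5′ to 3′ on the strand of its gene, with CG dinucleotides, the sites of most DNA methylation in mammals, in capitals.
Khdc3, chr9:73102148-73102447, plus strand: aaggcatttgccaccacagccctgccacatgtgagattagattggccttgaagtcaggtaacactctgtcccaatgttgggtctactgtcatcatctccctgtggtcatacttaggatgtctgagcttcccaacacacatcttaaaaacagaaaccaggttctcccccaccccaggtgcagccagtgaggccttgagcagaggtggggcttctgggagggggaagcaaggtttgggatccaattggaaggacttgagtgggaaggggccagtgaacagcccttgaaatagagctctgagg
Tcl1, chr12:105222688-105222987, minus strand: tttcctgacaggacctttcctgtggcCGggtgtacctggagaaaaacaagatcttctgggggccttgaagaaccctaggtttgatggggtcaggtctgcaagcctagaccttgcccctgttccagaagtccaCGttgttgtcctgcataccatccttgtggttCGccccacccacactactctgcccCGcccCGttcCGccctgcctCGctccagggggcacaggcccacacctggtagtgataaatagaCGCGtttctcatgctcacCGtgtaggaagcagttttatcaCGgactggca
Spic, chr10:88682974-88683273, minus strand: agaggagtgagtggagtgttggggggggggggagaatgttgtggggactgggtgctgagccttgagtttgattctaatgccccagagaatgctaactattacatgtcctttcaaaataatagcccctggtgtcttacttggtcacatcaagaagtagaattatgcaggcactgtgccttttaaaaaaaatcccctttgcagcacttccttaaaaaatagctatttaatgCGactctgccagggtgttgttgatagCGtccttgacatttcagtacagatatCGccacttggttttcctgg
L1td1, chr4:98726504-98726803, plus strand: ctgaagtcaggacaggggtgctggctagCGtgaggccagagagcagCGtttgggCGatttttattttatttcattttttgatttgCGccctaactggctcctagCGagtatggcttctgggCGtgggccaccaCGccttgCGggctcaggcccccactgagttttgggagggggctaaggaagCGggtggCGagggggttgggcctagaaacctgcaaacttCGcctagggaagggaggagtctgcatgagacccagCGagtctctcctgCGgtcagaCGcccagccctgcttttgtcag

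The CG content of these windows varied. The Khdc3 window held 0 CG dinucleotides, as 0.537% of the 8561 promoters of genes at or above the floor did. Those of Spic, Tcl1 and L1td1 held 3, 11 and 14, against a median of 22 over the same 8561 promoters and of 7 over all 32851 promoters of the RefSeq table, so Tcl1 and L1td1 lay between both medians and Spic under both. Fewer CG than in the L1td1 window were found in 23.9% of those promoters. RefSeq placed the start used for Khdc3 562 bases and that for Spic 1992 bases inside the gene as GENCODE M21 draws it, so other starts of these 2 genes are not in the windows. For Tcl1 and L1td1 the offsets were 56 and 20 bases.

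In these windows 7 motifs were sought on both strands. One was TGANTCA, the site of AP-1, the dimer that contains c-Jun. Pluripotency factors were covered by the octamer ATGCAAAT of OCT4, by the site AAGGTCA that ESRRB binds, and by GGGCGTG for the Klf factors. The others were the E-box CACGTG, the site GGCGGGAA that E2F factors bind, and the core GAGGAA for the Spi group. A single match was found in the 4 windows, the Klf motif in L1td1, with its first base at position −132 from the start. Among all 32851 promoters 8.44% held the Klf motif, and 15.9% of those of genes that reached the floor did. TGANTCA stood in 7.81% of all promoters and in 4.6% of those of genes that reached the floor. For the Spi core these shares were 28.3% and 25.6%. A missing match says only that these letters are not in these windows.

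Among the oocyte-linked members, Khdc3 encodes FILIA, a KH-domain protein of the subcortical maternal complex that the egg supplies to the embryo. It lies on chromosome 9 from 73101836 to 73104438 (GRCm38, plus strand). Khdc3 stood at 31 with dox and 435 without. That is 10.9-fold lower with dox, with a log2 ratio of −3.44 that ranked 3 from the lowest of the 8547 genes. The log2 ratio was −3.77 with a pseudocount of 1 and −2.58 with 50. By value it held rank 9013 of the 14261 rows with dox and rank 1372 without, so its place with dox was among the lower rows of the table and without dox among the upper ones.

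Dppa3, also called Stella or PGC7, encodes a maternal factor that shields the maternal genome from loss of DNA methylation in the zygote and that restrains UHRF1, the cofactor of the maintenance methyltransferase. It lies on chromosome 6 from 122626410 to 122630272 (plus strand). Its values were 72 with dox and 287 without, 3.62-fold lower with dox, a log2 ratio of −1.86. A lower ratio was found for 0.842% of the 8547 genes.

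Dppa2 and Dppa4 encode a pair of related SAP-domain proteins that bind DNA together and keep developmental promoters free of DNA methylation. The genes are neighbours on chromosome 16, Dppa4 from 48283733 to 48294237 and Dppa2 from 48303908 to 48319723, both on the plus strand. Dppa4 stood at 77 with dox and 187 without, 2.26-fold lower with dox. Dppa2 stood at 94 with dox and 137 without, 1.41-fold lower and within the 2-fold limit. Divided by kilobases of transcript, Dppa4 had the larger level in both libraries, 52.1 beside 38.4 for Dppa2 with dox, and 126 beside 56.0 without. The undivided values with dox have the other order, and whether the deposited values were already scaled by length is not known. The 2-fold call of Dppa4 was lost with a pseudocount of 50 (log2 ratio −0.90 in place of −1.18) and with the trend on transcript length removed (−0.86).

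Dppa5a, or Esg1, encodes another KH-domain RNA-binding protein and is one of the most abundant transcripts of mouse ES cells. It lies on chromosome 9 from 78367052 to 78368177 (minus strand). Its value was 3818 with dox and 4342 without, a log2 ratio of −0.19, with 42.6% of genes having a lower one. Values this high came in sets of 10 genes with nearly equal numbers, and 3818 belonged to the set from 3818 to 3826, next under the set from 4341 to 4354 that held 4342. The difference of Dppa5a was thus a step between adjoining sets, and its sign was the other way, at 0.27, with the trend on transcript length removed. The summed value of the other 8 genes was 1024 with dox and 2960 without.

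Tcl1 encodes a small protein that binds AKT kinases and raises their activity, and in ES cells it is known as a gene that supports self-renewal. It lies on chromosome 12 from 105216750 to 105222793 (minus strand). The gene was listed at 12 with dox and at 188 without, 9.0-fold lower with dox, with a log2 ratio of −3.17 that ranked 10 from the lowest. A value this low leaves the size of the ratio dependent on the pseudocount, from −3.86 with 1 to −1.94 with 50.

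Spic encodes an ETS-domain transcription factor of the Spi group that is also known from red pulp macrophages of the spleen. Its locus is on chromosome 10 from 88674772 to 88685015 (minus strand). Spic stood at 23 with dox and 182 without, 5.82-fold lower with dox, with a log2 ratio of −2.54 that ran from −2.93 to −1.67 over pseudocounts of 1 and 50. Genes linked to Spic in red pulp macrophages and heme handling gave no common direction. Of the 2 besides Spic that reached the floor, the heme-responsive repressor gene Bach1 was 2.98-fold higher, at 607 with dox and 197 without, and the heme oxygenase gene Hmox1 was within 2-fold, at 128 and 113.

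Fbxo15 encodes an F-box protein, the substrate-binding part of an SCF ubiquitin ligase, and served as a reporter gene in the first reprogramming of mouse fibroblasts. The gene lies on chromosome 18 from 84934782 to 84981473 (plus strand). Its value stood at 244 with dox and 621 without, 2.48-fold lower with dox, a log2 ratio of −1.31 that stayed between −1.34 and −1.13 in the alternatives tried. On the opposite strand it overlaps Timm21, at 42 with dox and 43 without, and the sources used here do not say whether counting used strand, so reads of the overlap may be shared.

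L1td1 encodes an RNA-binding protein that arose from the first open reading frame of a LINE-1 retrotransposon and that, in human pluripotent cells, is found with LIN28. Its locus is on chromosome 4 from 98726734 to 98738480 (plus strand). L1td1 stood at 471 with dox and 923 without, 1.94-fold lower with dox and so just within the 2-fold limit. Its log2 ratio of −0.96 nonetheless lay under that of all but 6.18% of genes.

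**Figure D2:**
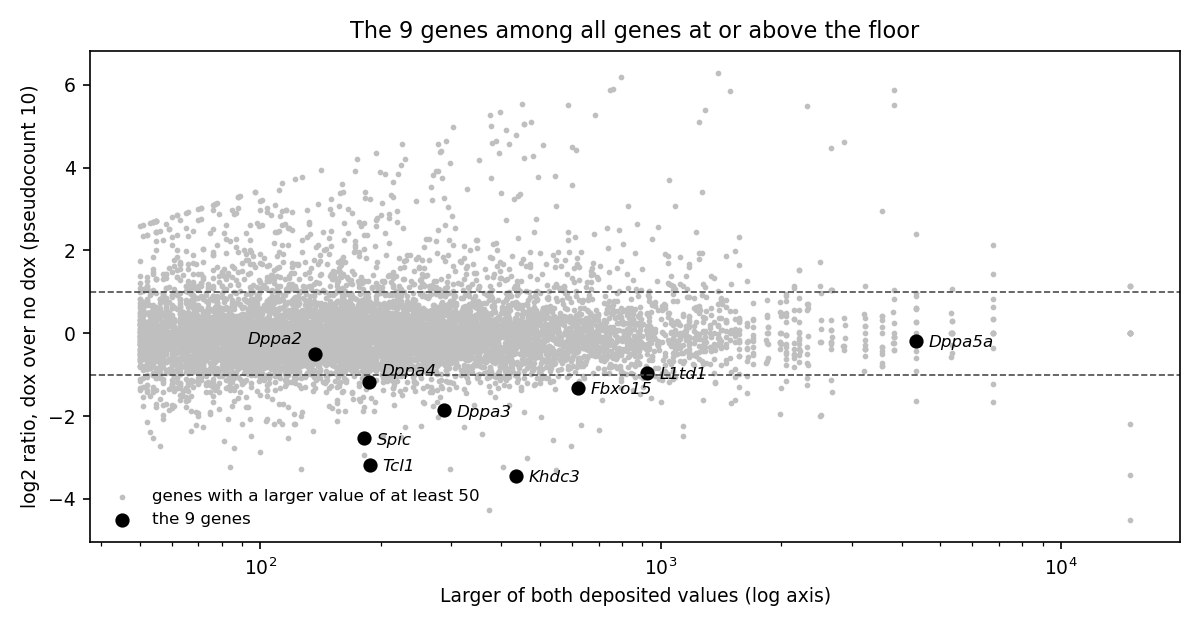
Log2 ratio of dox over no dox (pseudocount 10) against the larger of both deposited values (log axis) for the 8547 genes at or above the floor (grey), with the 9 genes in black and dashed lines at 2-fold. Khdc3 at −3.44, Tcl1 at −3.17 and Spic at −2.54 lie at the lower edge of the cloud, and Dppa5a at −0.19 lies within it.

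Set on a scale per length (value divided by the kilobases of the longest GENCODE transcript), the order of levels was not the same in the 2 libraries. With dox the levels were 6168 for Dppa5a, 160 for L1td1, 96.4 for Fbxo15, 86.4 for Dppa3, 52.1 for Dppa4, 38.4 for Dppa2, 18.4 for Khdc3, 10.04 for Spic and 8.58 for Tcl1. Without dox they were 7015 for Dppa5a, 345 for Dppa3, 314 for L1td1, 259 for Khdc3, 245 for Fbxo15, 134 for Tcl1, 126 for Dppa4, 79.5 for Spic and 56.0 for Dppa2. Dppa5a led both orders by a wide margin. Dppa2, the lowest level without dox, held place 6 with dox, while Khdc3 held place 7 with dox and place 4 without. These levels hold only if the deposited values were not already scaled by length, which the sources used here do not say. With no replicates it cannot be said which neighbours in these orders differ beyond a spread.

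Genes of lower and higher value both included large differences. The 4 genes under 250 without dox had a median log2 ratio of −1.86 and the 5 others −1.31, with 3 in each set at least 2-fold lower. Among the 4 Dppa genes 2 were at least 2-fold lower, and among the other 5 genes 4 were, against 5.49% of all genes. Sets this small do not show a difference between these groups. The call of Dppa4 was also lost with a pseudocount of 50 and with the length trend removed.

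Other annotated genes share sequence with several of the 9. Transcripts of other genes with at least 90% identity over 200 bases or more were found for Dppa2 (6 genes), Dppa5a (9), Dppa3 and Dppa4 (2 each) and Khdc3 and L1td1 (1 each). All are annotated as pseudogenes except Pigp, which matched Dppa5a, and Gm20509, which matched Khdc3. Gm20509 is a protein-coding gene that overlaps Khdc3 on the same strand and was not analysed here, and how reads of the overlap were assigned is not known. Of all these matches the table rows held Pigp, which matched Dppa5a over 417 bases and stood at 24 with dox and 16 without. How reads were divided between such copies is not given in the sources used here, so the values of these 6 genes are uncertain to that extent. No such match was found for Tcl1, Fbxo15 or Spic.

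Maternal-effect genes as a wider list were lower in part. Of 18 such genes 9 stood in the table and 8 reached the floor. Of these 8, 4 were at least 2-fold lower with dox, 0 higher and 4 within 2-fold, with a median log2 ratio of −1.10. Over all genes 5.49% were lower and 9.23% higher. The count of lower genes includes Khdc3 and Dppa3, which are themselves among the 9 genes. Beside Khdc3 and Dppa3 the lower ones were Zfp57, which guards methylation at imprinted regions, at 408 with dox and 1273 without, and Nlrp4f, which encodes a maternal NLR protein, at 34 and 104. Ooep, the gene of a KH-domain partner of FILIA in the maternal complex, stood at 113 with dox and 208 without, within 2-fold. Another partner gene, Tle6, was under the floor at 4 with dox and 20 without, and Zbed3 had a larger value with dox, at 55 and 42. Without genes that stand in other lists the median was −0.34. Of the other KH-domain relatives, Khdc1a was 3.67-fold lower with dox, at 11 with dox and 67 without.

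Of 10 markers of the oocyte itself 1 stood among the rows used, the zona pellucida gene Zp3, at 32 with dox and 54 without. Of 24 germline genes that DNA methylation or a Polycomb complex is known to silence elsewhere, 22 stood in the table and 9 reached the floor. Of these 9, 0 were lower and 0 higher, with a median of −0.27. Over all genes 5.49% were lower and 9.23% higher, so counts of 0 among 9 do not set these germline genes apart. Among them the germ cell RNA-binding gene Dazl stood at 366 with dox and 370 without, and the retrotransposon control gene Tex19.1 at 153 and 215.

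Genes of the embryo at the 2-cell stage, whose activator Dux is known to depend on DPPA2 and DPPA4, were mostly at low values in both libraries. The table held 19 of the 24 listed, of which 4 reached the floor. At least 2-fold lower with dox were 3 of these 4, against 5.49% of all genes, and so few genes cannot speak for the list. The lower genes were Zfp42, also a naive marker, at 459 with dox and 1047 without, and the PRAME-like genes Pramel6, at 11 and 70, and Pramel7, at 4 and 52. Eif1a was within 2-fold, at 543 with dox and 736 without. Among the Zscan4 genes, all under the floor, Zscan4f stood at 20 with dox and 46 without and Zscan4c at 14 and 0, so the family had no common direction. The list median of −1.55 became −0.25 with no floor.

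The partners through which DPPA3 is linked to DNA methylation differed from each other. Of 7 at or above the floor 2 were lower with dox, 2 higher and 3 within 2-fold, with a median of −0.29. Over all genes 5.49% were lower and 9.23% higher. The dioxygenase genes Tet1, at 494 with dox and 1072 without, and Tet2, at 119 and 419, were lower. Tet3, whose product oxidises methylated DNA in the zygote, was 11.3-fold higher with dox, at 328 and 20, and the de novo methyltransferase gene Dnmt3a 2.12-fold higher, at 134 and 58. Uhrf1, the target that DPPA3 restrains, was within 2-fold, at 1204 with dox and 2057 without.

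Genes around the other members were mostly within 2-fold, as most genes were. Over all 8547 genes 14.7% were past 2-fold either way, so these counts do not set the lists apart. In the list of the Tcl1 family and Akt kinases 9 genes reached the floor, with 1 lower, Tcl1 itself, and 1 higher, Akt1, which lay on the threshold at 228 with dox and 109 without (2.00-fold). Mtcp1, a relative of Tcl1, stood at 57 with dox and 25 without, and Akt2 at 336 and 430. The list median was 0.18, and −0.01 with the length trend removed. All 5 SCF core genes were within 2-fold, with a median of −0.64, among them the adaptor gene Skp1a at 794 with dox and 1271 without and the scaffold gene Cul1 at 557 and 632. All 6 genes listed as RNA-binding partners of L1TD1 were within 2-fold as well, with a median of 0.06, among them Lin28a at 200 with dox and 358 without and Igf2bp1 at 1336 and 987.

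**Figure D3:**
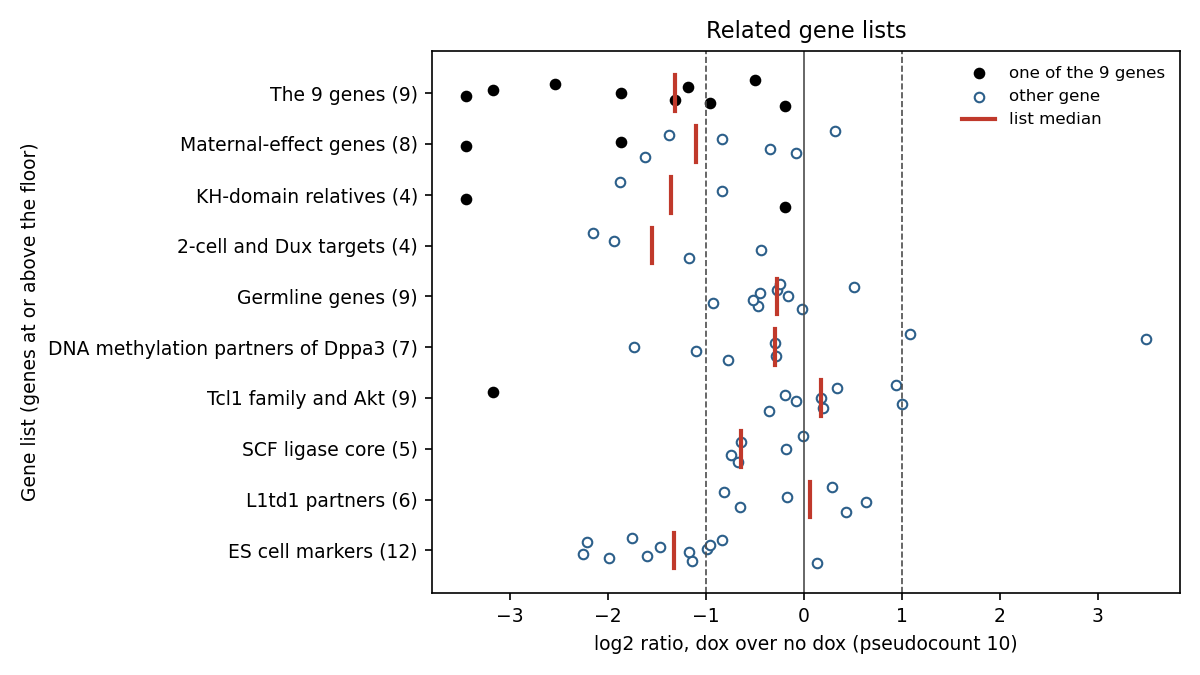
Log2 ratio of dox over no dox (pseudocount 10) for genes at or above the floor in 10 lists, with the number of genes in brackets, list medians as red bars, black points for the 9 genes and open points for others. The medians of the 9 genes (−1.31) and of ES cell markers (−1.32) lie close together, and those of L1td1 partners (0.06) and of the Tcl1 family and Akt kinases (0.18) lie near 0.

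ES cell markers gave the setting of these values. All 12 stood in the table and reached the floor, 8 were at least 2-fold lower with dox and 0 higher, and their median log2 ratio was −1.32. Pou5f1, which encodes Oct4, stood at 3572 with dox and 3230 without, and Nanog at 623 and 2508. From the candidate set of the first reprogramming study, to which several of the 9 genes also belong, 12 other genes reached the floor. Of these 7 were lower and 0 higher, with a median of −1.09. They include ES cell markers already counted above, among them the lower genes Nanog, Zfp42, Klf4 and Utf1. Without genes that stand in other lists the median was −0.91. Beside the counts of both lists, 5.49% of all genes were lower and 9.23% higher. Markers of other cell types had larger sums with dox, though not every marker was larger. Summed over all listed genes in the table, macrophage markers came to 239 with dox and 42 without (6 of 11 in the table), fibroblast markers to 97 and 42 (11 of 11) and trophoblast markers to 514 and 120 (7 of 9). With dox the largest contributions were those of Csf1r, at 111 with dox and 1 without, Cd68, at 96 and 19, Col3a1, at 39 and 2, and Krt7, at 374 and 0. Krt7 alone gave 374 of the trophoblast sum of 514. In each of these 3 lists 2 genes were smaller with dox. They included Tfap2a, at 42 with dox and 55 without, Eomes, at 18 and 32, Mrc1, at 10 and 14, and Itgam, at 3 and 8. Larger with dox were 3 macrophage, 7 fibroblast and 5 trophoblast markers. The floor was reached by 2 macrophage, 0 fibroblast and 2 trophoblast markers. The macrophage gene Lyz2 and the fibroblast genes Dcn and Lum were listed at 0 in both libraries. The part of such cells in the values of the 9 genes was not tested.

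Position on the chromosome was examined through all table genes within 250 kb of a member. Outside the 9 genes 27 such neighbours reached the floor, with 3 at least 2-fold lower with dox, 3 higher and 21 within 2-fold. Over all genes 5.49% were lower and 9.23% higher, so counts this small do not set the neighbours apart. The 3 lower neighbours stood at 2 loci. Next to Dppa3 on chromosome 6 were Gdf3, the gene of a TGF-beta family ligand of ES cells, 16.3 kb away, at 168 with dox and 447 without, and Nanog, 77.2 kb away. The same locus held the glucose transporter gene Slc2a3, within 2-fold at 1007 with dox and 1701 without, and Foxj2, which was higher, at 59 and 13. Next to Dppa2 and Dppa4, which lie 9.67 kb apart, was Morc1, a germline gene of retrotransposon silencing, at 203 with dox and 486 without.

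At the other loci no neighbour was 2-fold lower. Ooep lies 7.93 kb from Dppa5a, and the translation elongation gene Eef1a1, 110 kb away, had the highest value of the table, 14907, in both libraries. Cd109, the gene of a cell surface glycoprotein 247 kb from Dppa5a, was higher, at 547 with dox and 56 without. Khdc3 had Rsl24d1, a ribosome assembly gene 8.99 kb away, at 220 with dox and 406 without, and Ccpg1, 85.5 kb away, at 75 in both. Beside L1td1, 7.13 kb away, the polarity gene Patj was higher, at 172 with dox and 29 without. Arl1 and Utp20 near Spic stood at 202 with dox and 231 without and at 419 and 567, and Glrx5 near Tcl1 at 75 and 110.

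**Figure D4:**
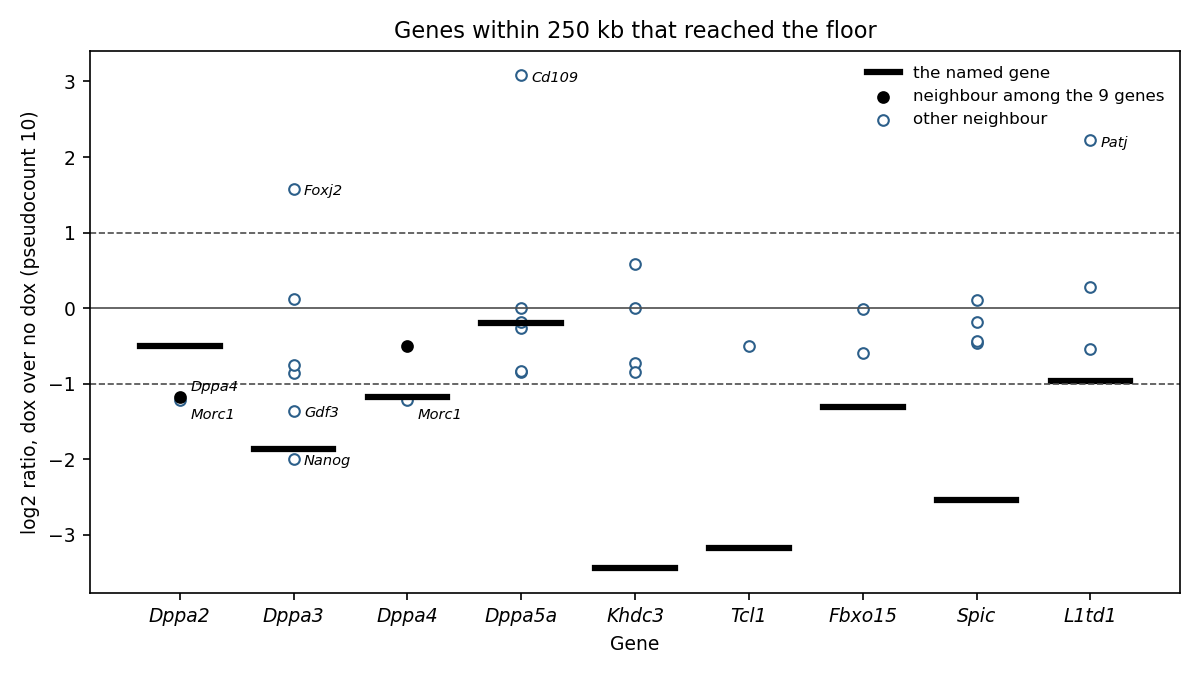
Log2 ratio of dox over no dox (pseudocount 10) for each of the 9 genes (black bars) and for table genes within 250 kb that reached the floor (points, black where the neighbour is one of the 9), with names for those past 2-fold. Lower neighbours are seen at Dppa3 (Gdf3 and Nanog) and at Dppa2 and Dppa4 (Morc1, and Dppa4 itself beside Dppa2), and none at Khdc3, Tcl1 or Spic.

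For each member the gene with the most similar pair of values was sought by Euclidean distance between the log2 of value plus 10 over the 2 libraries. With so few libraries such likeness says that both values were close and no more. Dppa3 had Utf1, a chromatin factor gene of ES cells, at 73 with dox and 270 without (distance 0.087). Dppa5a had the ribosomal protein gene Rplp0, at 3819 and 4343 (0.001). Dppa2 shared both values with Fbxl6, and Dppa4 lay next to Dmgdh, at 76 with dox and 187 without (0.017). L1td1 lay next to Nolc1, a nucleolar protein gene, at 466 with dox and 966 without (0.067). The other matches were more distant, that of Khdc3 with the water channel gene Aqp3 at 34 and 404 (0.146), that of Fbxo15 with Fgd4 at 275 and 626 (0.167), that of Tcl1 with the glutamate receptor gene Grin1 at 15 and 182 (0.190) and that of Spic with Cd84 at 28 and 203 (0.253).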

How the data were processed

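Total RNA of 2 mouse ES cell cultures was sequenced with a TruSeq RNA kit on a NextSeq 500, per the labels' protocols, and bcl2fastq, Bowtie2, RSEM and mm10 are named in the submitters' processing notes. No source used here gives their versions, the annotation, the normalization or filters. These deposited values were handled as a normalized score on a count scale rounded by the authors, since 75.5% of sorted positions held equal values in both libraries (tolerance 0), and no count model was used. Depth is unknown. Groups came from the agent in the labels. No other sample column was present (0).

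Ratios used a pseudocount of 10, a floor of 50 on the larger value and a 2-fold limit. The members, lists and settings were chosen with earlier results of these data known. Named genes were the 9 members, Jun, up to 4 genes per list (past 2-fold and then by size), neighbours and the nearest pattern per member. Further list genes (Ooep, Tle6, Zbed3, Zscan4f, Zscan4c, Eif1a, Hmox1, Mtcp1, Akt2, Lin28a, Uhrf1, Pou5f1, Pigp, Timm21, Lyz2, Dcn and Lum, for example) were added after their values were seen. GENCODE M21 on GRCm38, the assembly of mm10, matched 99.2% of symbols. A lowess trend on transcript length (fraction 0.3) was removed in one alternative. Copies were sought with BLAST 2.17.0. Python 3.11.15, numpy 2.4.6, pandas 2.3.3 and statsmodels 0.14.6 were used, and the steps were tested on simulated data.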

Additional observations from a re-analysis of the deposited data

How the results depend on the processing

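No test was possible with 1 library per group, and no paired analysis was possible because each group has 1 library. The number of the 9 genes at least 2-fold lower with dox was 6. It was 3 with a floor of 250, which leaves 5 of the genes, and 3 with a 4-fold threshold, and lay between 5 and 7 in the other alternatives (pseudocounts of 1 and 50, no floor, centring, length trend removed, 1.5-fold). No alternative gave a member 2-fold higher. The median log2 ratio of the members ran from −1.34 to −1.13 in these settings. With genes that stand in other lists left out, which keeps Dppa2, Dppa4, Fbxo15 and L1td1, it was −1.07. Of 36 alternative values of single members 33 kept direction and side of the 2-fold limit. Dppa4 missed it with a pseudocount of 50 and with the length trend removed, and Dppa5a changed sign, to 0.27, with the length trend removed. Over all 8547 genes the number at least 2-fold lower was 469 (5.49%), against 171 (2.00%) with a pseudocount of 50. It was 796 of 14261 (5.58%) with no floor and 147 of 3118 (4.71%) with a floor of 250. At 1.5-fold it was 1511 (17.7%) and at 4-fold 55 (0.644%). The number higher was 789, against 498 with a pseudocount of 50, 1255 with no floor, 298 with a floor of 250, 1425 at 1.5-fold and 266 at 4-fold. Of 103 alternative list medians 16 moved by over 1.5-fold or changed sign. The scale limits what high values can show, since neighbouring ranks share nearly equal numbers.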
